A study of Bos taurus with 8 samples.

Results

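Potassium channel genes were followed through the methylomes of un-treated bovine dermal fibroblasts, the collagen-producing cells of the skin, from 4 Holstein (dairy) and 4 Angus (beef) heifers. Members were all genes whose symbol begins with KCN on chromosomes 1 to 29, namely 89 of the 24038 genes named there, with 3610 of the 335024 windows that carry a gene name on those chromosomes and of 902984 windows in all. They lay on 25 chromosomes. Of the 89 genes, 16 encode accessory or regulatory proteins, so the symbol gathers a wider set than channels alone; KCNIP3 and KCNRG, for example, are regulators without a pore.

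The libraries were made by MIRA-Seq, in which the MBD2b/MBD3L1 complex pulls methylated fragments out of sonicated DNA for sequencing. Each library came from 1 animal and 1 culture at passage 5, grown with no challenge; per the study's methods the skin of the shoulder was sampled at the same age in both breeds. Reads were counted in consecutive 3Kb windows of the UMD v3.1 assembly and are given as CPM, the count of a window scaled by the total count of its library over all windows. More reads mean more bound DNA, which rises with the density of CpG sites and with DNA copy number as well as with methylation, and no input library was used here. Methylation counts hold no marker RNA against which the labelled cell type could be checked, and a mixture of differently methylated cells cannot be told apart from an even level in all cells.

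Potassium channels let potassium ions leave or enter a cell, set its resting voltage and end electrical signals. Voltage-gated subunits open when the membrane depolarizes, inward rectifiers and tandem-pore channels hold the resting voltage, and calcium-activated channels couple it to calcium. Fibroblasts are not electrically excitable in the way of neurons, but potassium currents are known to take part in their volume control and proliferation. Many of these genes are used chiefly in brain, heart or endocrine cells and start in CpG-rich DNA.

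Library totals over windows ran from 18691111 to 35525554 reads. The KCN windows held 36399 to 102806 of these, or 0.170 to 0.290%. Both lowest shares, 0.170% in Angus 3 and 0.184% in Holstein 1, came with the smallest TMM scaling factors of the series (0.677 and 0.817, against 0.952 to 1.22 in the others), and results are given without these libraries where they moved. The median KCN window held 4 to 15 reads per library, and the 3 reads that a count of 0 still allows equalled 0.0844 to 0.161 CPM. Such floors cover counting error only, since PCR copies are not independent molecules. No pair of libraries within a breed agreed within sampling noise (chi-square per KCN window 1.17 to 2.14).

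The median KCN window stood at 0.353 CPM ± 0.107 (SD over 8 libraries), against 0.351 over all named windows, and 17.3% of KCN windows reached a mean of 1 CPM, against 18.4%. Averaged per gene, the windows after the first had a median of 1.05 CPM ± 0.197 over 85 KCN genes and of 0.575 CPM ± 0.133 over 19867 genes. Long KCN genes, which hold most of the windows, had the lower levels. Over KCN genes, Spearman's rho between the number of windows and the mean of the other windows was -0.46 (n = 85), and over all named genes it was -0.10 (n = 19867); the genes share libraries and base composition, and the values are descriptions across genes. KCNIP4 with 438 windows and a median window of 0.160 CPM was the longest member. KCNJ16 with 2 windows had the highest level beyond its first window, 8.35 CPM.

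In each gene the window at the 5′ end was taken as the first. It stood at a median of 0.698 CPM ± 0.158 over the 89 KCN genes, below the 1.05 CPM of their other windows and above the 0.404 CPM ± 0.108 of first windows of all 24038 genes. First windows lay below the mean of the gene's other windows in 59 of 85 KCN genes (69.4%), against 66.1% of all genes, and did so in each of the 8 libraries in 44 of 85 (51.8%), against 43.0%. They lay above in each library in 18. With the first 2 windows of a gene joined, the order of the medians turned round, 0.990 CPM at the start against 0.957 CPM in the rest, with 49 genes below. A mean of at least 1 CPM was reached by 34 of 89 first windows (38.2%), against 20.6% of all genes. The first window carried coding exon 1 in 74.2% of KCN genes and in 57.0% of all genes. These shares describe the set, and whether it stands apart from other genes of the same CpG density was not tested.

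**Figure D1:**
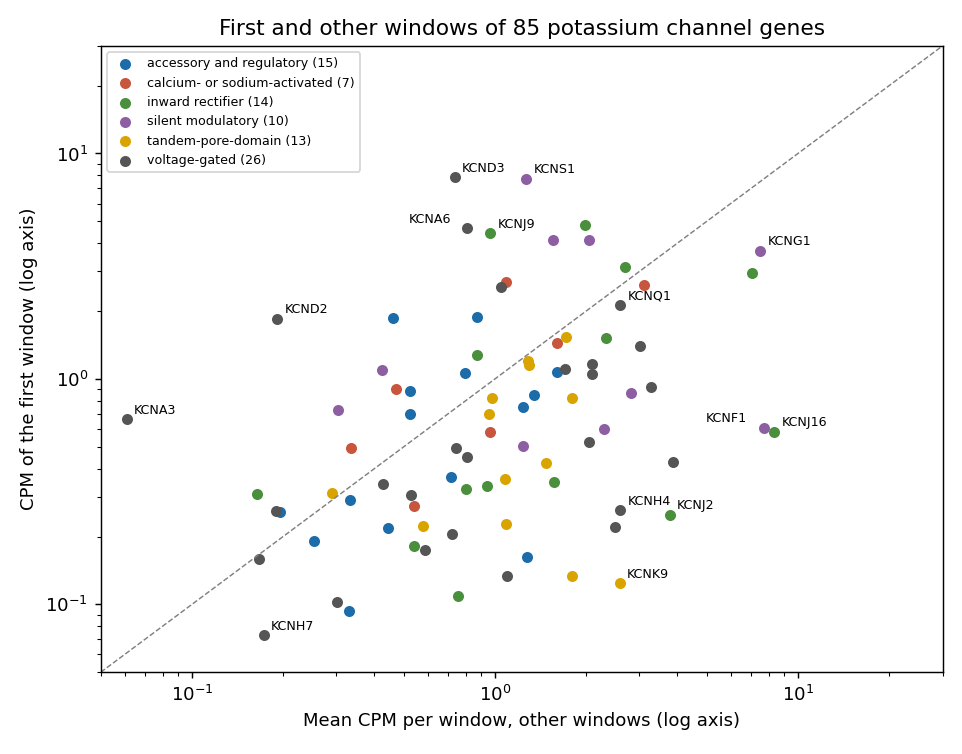
Each point is 1 of the 85 KCN genes with more than 1 window, coloured by family. The x axis gives the mean CPM per window beyond the first, the y axis the CPM of the first window, both as means of 8 libraries on log axes, and the dashed line marks equality: 59 genes lie below it, KCNJ2 and KCNK9 among the farthest, and KCND3, KCND2 and KCNA3 among the farthest above.

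The highest first windows belonged to KCND3, the pore subunit of a fast-inactivating A-type current in heart and brain, and to KCNS1, a silent subunit that changes the gating of other channels without conducting alone. The first window of KCND3 (gene at chr3:31464110-31686109, plus strand; coding exon 1) had 7.43, 8.83, 9.04 and 8.08 CPM across Holstein animals 1 to 4 and 6.04, 7.13, 7.12 and 9.20 CPM across Angus animals 1 to 4. All libraries were high and the breeds overlapped, and its mean of 7.86 CPM ± 1.12 (SD, n = 8) ranked at the 99.6th percentile of first windows of all genes. The rest of the 74 windows of KCND3 averaged 0.736 CPM ± 0.167, so the gene had a peak at its start and a low body. KCNS1 had 7.72 CPM ± 1.12 in its first window and 1.27 CPM ± 0.289 in its other window.

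The next 6 were KCNJ5 (4.82 CPM), KCNA6 (4.67), KCNJ9 (4.43), KCNG4 (4.14), KCNS2 (4.14) and KCNG1 (3.70). KCNJ5 and KCNJ9 encode G-protein-gated inward rectifiers of heart and brain, KCNA6 a delayed rectifier of neurons, and KCNG4, KCNS2 and KCNG1 silent subunits. Silent modulatory subunits thus supplied 4 of the 8 highest first windows from 10 of the 89 genes, a count read off the ranked values and not tested. In all but KCNG1 the first window lay above the mean of the other windows. KCND2, the close relative of KCND3, had 1.85 CPM ± 0.439 in its first window and 0.191 CPM ± 0.0603 over the rest of its 190 windows.

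At the other end stood KCNH7, an ether-a-go-go-related channel of neurons, with the lowest first window of all, 0.0731 CPM ± 0.0359. Its 8 libraries ran from 0.0378 to 0.134 CPM, or 1 to 4 reads. KCNMB4, the beta subunit of the neuronal large-conductance channel (0.0937 CPM), and KCNB2, a delayed rectifier (0.103 CPM), followed closely, and their order is not set beyond counting error.

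Windows with a coding exon were the higher ones in KCN genes. The 445 KCN windows with a coding exon had a median of 0.858 CPM ± 0.162 (SD over 8 libraries), against 0.487 CPM over the 111429 coding windows of all named genes. The 3165 KCN windows without one stood at 0.324 CPM ± 0.0923, against 0.314 CPM. Among first windows the 72 with a coding exon had a median of 0.825 CPM and the 17 without one 0.350 CPM; among other windows it was 0.894 CPM for 373 and 0.324 CPM for 3148. In each of the 8 libraries the coding median lay above the non-coding one, both in first and in other windows.

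**Figure D2:**
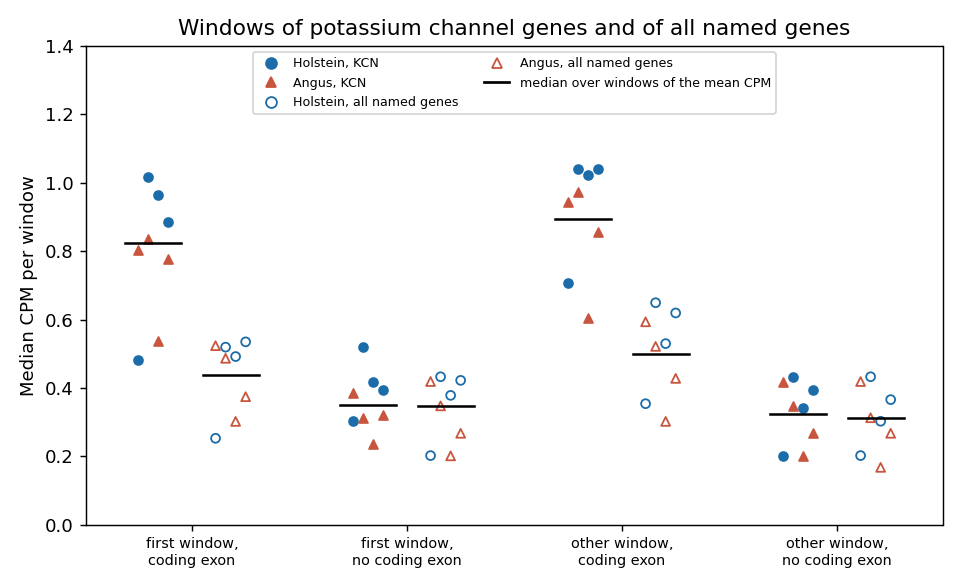
Median CPM per window in each library (points, n = 8) for KCN genes (filled) and all named genes (open), in first and other windows with and without a coding exon; black lines mark the median over windows of the mean of 8 libraries. Coding windows of KCN genes stood at 0.825 CPM (first) and 0.894 CPM (other), against 0.438 and 0.499 CPM over all named genes, while those without one stood at 0.350 and 0.324 CPM, against 0.348 and 0.313 CPM.

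The same held inside genes. In 53 of the 61 KCN genes (86.9%) that had windows of both kinds beyond the first, coding windows averaged more reads than non-coding ones, against 68.1% of 11643 genes. They did so in every library in 46 genes (75.4%, against 50.9%), and the median ratio of coding to non-coding windows was 1.99, against 1.37. The ratio was 21.6 in KCNJ2, 12.8 in KCNJ8, the pore of a vascular ATP-sensitive channel, and 11.5 in KCNV2, a silent subunit of photoreceptors. In 4 genes coding windows were the lower in every library. KCNJ3, a G-protein-gated rectifier of the heart, had 0.0770 CPM in coding windows and 0.173 CPM in the others. The former lies below the 3-read floor of a single window (0.0844 to 0.161 CPM). Its first window, with coding exon 1, is left out of this comparison and had 0.310 CPM.

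Several channel genes keep their whole coding sequence in 1 exon behind an untranslated first exon, so that the protein-coding part lies away from the start. Windows of 22 KCN genes carried coding exon 1 and no other exon number. In 11 of these the first window held no coding exon, and the coding windows (their mean where more than 1) lay above the first window in 10 of the 11, with no overlap of libraries in 9. The medians were 2.41 CPM in coding and 0.367 CPM in first windows, and the ratio ran from 0.837 to 41.6 with a median of 7.39.

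KCNJ2 encodes the classical strong inward rectifier, which stabilizes the resting voltage of heart and skeletal muscle and has also been described in connective-tissue cells. Its window 3 (chr19:61187475-61190474, minus strand, coding exon 1) had 9.46, 11.5, 10.7 and 11.2 CPM across Holstein animals 1 to 4 and 7.82, 10.2, 10.5 and 11.7 CPM across Angus animals 1 to 4. Its first window had 0.303, 0.346, 0.114 and 0.450 CPM and 0.209, 0.278, 0.134 and 0.161 CPM in the same order. The exon was thus high and the start low in every library, 10.4 CPM ± 1.26 against 0.250 CPM ± 0.116, while the breeds overlapped in both.

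KCNJ16, which pairs with KCNJ10 in kidney and glia, lies near KCNJ2 on chromosome 19 and had 8.35 CPM ± 1.07 in its coding window and 0.583 CPM ± 0.220 in its first. KCNJ12, a further strong rectifier, had 11.2 CPM ± 0.754 in its coding window, which was the last of its 13, and 1.51 CPM ± 0.433 in its first. KCNA4, an A-type channel, had 2.50 CPM ± 0.511 and 0.220 CPM ± 0.102. KCNE2, a small beta subunit, went the other way, with 0.584 CPM ± 0.169 in the coding window and 0.698 CPM ± 0.274 in the first, a difference within the spread of the libraries. In KCNJ1, the secretory channel of the kidney, the windows overlapped between libraries, at means of 2.03 CPM in the coding and 1.27 CPM in the first window. Within every library its coding window lay above its first. In 5 more genes coding exon 1 reached from the first window into another; KCNF1, a silent subunit, had 0.608 CPM in the first and 7.70 CPM in the other window, KCNJ11, the pore of the pancreatic ATP-sensitive channel, 2.96 and 7.03 CPM, and KCNS2 4.14 and 2.05 CPM.

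**Figure D3:**
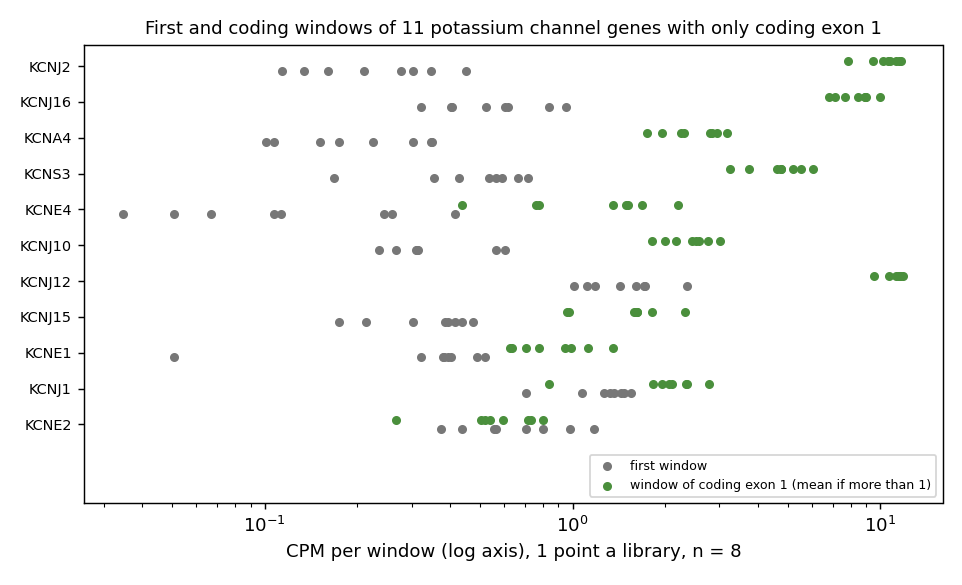
CPM on a log axis in the first window (grey) and in the windows of coding exon 1 (green) for the 11 KCN genes that carry only this exon number and have none in their first window, 1 point per library (n = 8). The colours do not overlap in 9 genes; KCNJ2 parts most, at 0.250 and 10.4 CPM, and KCNE2 and KCNJ1 overlap.

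The families of KCN genes were compared by their medians. Over silent modulatory subunits (10 genes, median of 4 windows) the medians were 0.980 CPM in first and 1.80 CPM in other windows. They were 0.563 and 1.29 CPM for the 14 tandem-pore channels, 0.466 and 1.26 CPM for the 14 inward rectifiers (median of 3 windows), and 0.510 and 0.810 CPM for the 28 voltage-gated channels. The 7 genes grouped as calcium- or sodium-activated channels, the longest family with a median of 49 windows, had 0.906 and 0.962 CPM. This group was set by symbol (KCNMA, KCNN, KCNT and KCNU), and KCNU1 is in it by symbol and not by what opens the channel. The 16 accessory and regulatory genes were the only family with a higher median in first windows, 0.723 against 0.526 CPM. Gene by gene this did not hold. In 9 of the 15 accessory genes with more than 1 window, the first window lay below the mean of the others. SDs of these medians over the 8 libraries were 0.139 to 0.240 CPM in first and 0.158 to 0.302 CPM in other windows, and the differences between families were not tested.

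Genes of 1 family ranged widely. The ranges that follow are over genes with at least 3 windows; among shorter genes KCNJ16 (8.35 CPM), KCNF1 (7.70 CPM), KCNG1 (7.51 CPM) and KCNJ11 (7.03 CPM) stood higher and KCNA3 (0.0609 CPM) lower. Among voltage-gated genes, other windows ran from 0.167 CPM in KCNH5, a neuronal channel, to 3.28 CPM in KCNH3, its brain-expressed relative. KCNJ3 (0.164 CPM) and KCNJ2 (3.78 CPM) bounded the inward rectifiers, KCNK2, the mechanosensitive TREK channel (0.290 CPM), and KCNK9 (2.59 CPM) the tandem-pore channels, and KCNN2, a small-conductance channel of neurons (0.336 CPM), and KCNT1, a sodium-activated channel (3.09 CPM), the activated ones. Silent subunits ran from 0.304 CPM in KCNV1 to 2.81 CPM in KCNG2. Accessory genes ran from 0.195 CPM in KCNIP4 to 1.60 CPM in KCNMB1, the beta subunit of smooth muscle large-conductance channels.

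Of genes with at least 5 windows, the highest other windows included those of KCNH3 (3.28 CPM ± 0.532), KCNT1 (3.09), KCNG2 (2.81), KCNQ1 (2.60), KCNH4 (2.59), KCNK9 (2.59) and KCNJ12 (2.33). The sharpest contrasts inside these genes were in KCNH4, with 0.261 CPM in the first window, and in KCNK9. The lowest were KCNJ3 (0.164 CPM), KCNH5 (0.167) and KCNH7 (0.173), with 45, 135 and 178 windows.

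The 20 windows on either side of a KCN gene correlated with its other windows at a Spearman's rho of 0.66 (n = 85 genes, no test; neighbouring windows share libraries and base composition). KCNQ1 had 2.60 CPM in a flank of 2.80 CPM and KCNH5 0.167 CPM in a flank of 0.189 CPM, whereas KCNH3 stood at 3.28 CPM in a flank of 0.692 CPM.

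Along the 44 KCN genes with at least 10 windows, the first window had a median of 0.460 CPM ± 0.140 and the window after it 0.652 CPM ± 0.192. With each gene cut into 5 equal parts the medians were 0.727, 0.622, 0.619, 0.632 and 0.869 CPM. The last window, which holds the end of the coding sequence in many genes, had a median of 1.10 CPM ± 0.257 and lay above the first in 30 of 44 genes (68.2%, against 61.7% of 7787 genes).

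KCNQ1 held 4 of the 10 KCN windows with most reads, namely its 34th (12.7 CPM), 18th (9.48 CPM), 35th (8.39 CPM) and 27th (8.37 CPM). KCNQ1 encodes the pore of the slow delayed rectifier of the heart and of epithelial channels, and in mouse and human lies in an imprinted domain controlled from within the gene by the start of an antisense RNA. No window carried the name of that antisense RNA, so no window could be assigned to it. KCNQ1 spans 128 windows (chr29:49398219-49782218, minus strand), of which 93 had at least 1 CPM and 15 at least 5 CPM, with a median of 2.18 CPM.

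Signal in KCNQ1 was uneven. The 17 windows before that of coding exon 1 had a median of 2.93 CPM, the 19 from coding exon 1 to 9 one of 4.30 CPM, the 64 between the windows of coding exons 9 and 11 one of 1.16 CPM, and the last 28 one of 2.47 CPM. The stretch of 64 was the lowest in each of the 8 libraries. The 34th window (chr29:49680219-49683218), which has no coding exon, had 9.20, 14.2, 13.9 and 14.4 CPM across Holstein animals 1 to 4 and 9.53, 12.2, 11.7 and 16.2 CPM across Angus animals 1 to 4. The lowest values were those of Holstein 1 and Angus 1 and the highest that of Angus 4, and the breeds overlapped.

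KCNK9, a tandem-pore leak channel of neurons and a maternally expressed imprinted gene in mouse and human, showed a low start and a high body. Its first window, with coding exon 1, had 0.101, 0.0433, 0.151 and 0.141 CPM across Holstein animals 1 to 4 and 0.0349, 0.139, 0.168 and 0.214 CPM across Angus animals 1 to 4, which are 1 to 5 reads. The breeds overlapped at this low level. The window that followed had 1.56 CPM ± 0.492, and 26 of the 34 windows (chr14:4641547-4743546, plus strand) reached 1 CPM. The highest was the 27th, without a coding exon, at 9.08 CPM ± 1.06, and the last, with coding exon 2, had 4.60 CPM ± 0.524. The counts come from both parental alleles together, so no allele could be examined.

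**Figure D4:**
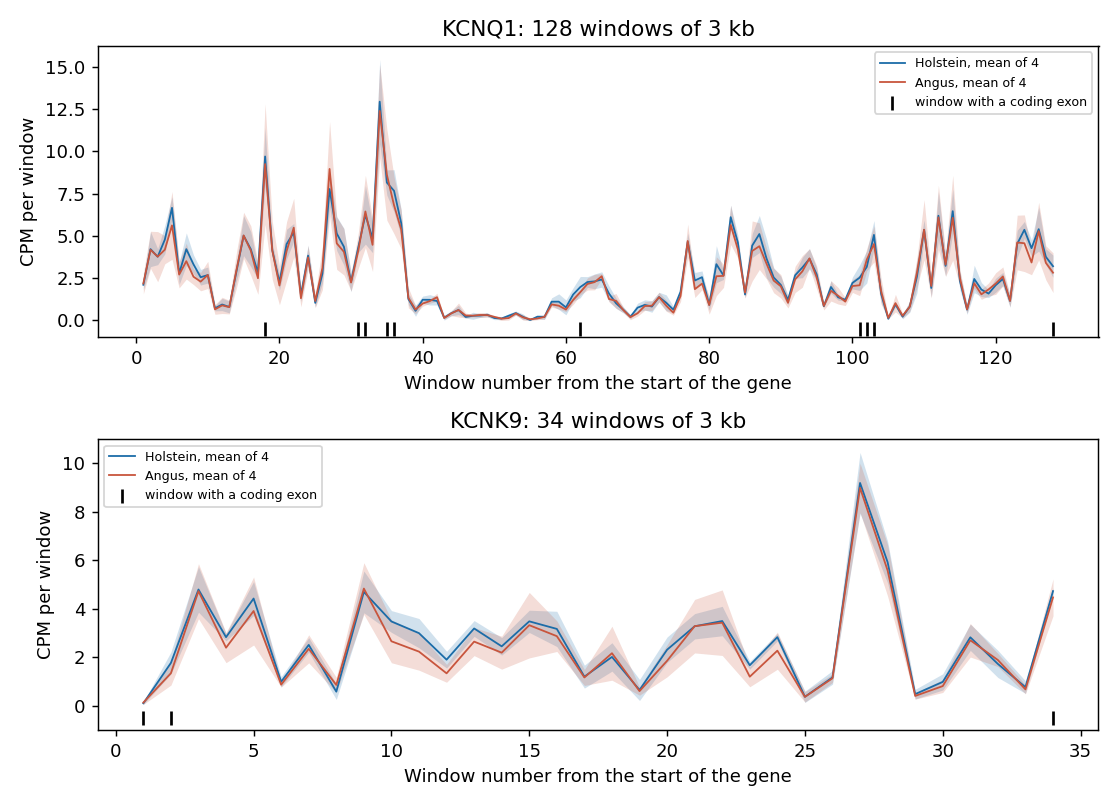
CPM per 3Kb window along KCNQ1 (128 windows) and KCNK9 (34 windows), numbered from the start of the gene; lines are breed means of 4 libraries, bands ± 1 SD, and ticks mark windows with a coding exon. The breed lines run together; KCNQ1 peaks at window 34 (12.7 CPM) and falls to 0.0297 CPM in its lowest window, and KCNK9 rises from 0.124 CPM in its first window to 9.08 CPM in its 27th.

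The other windows among the 10 with most reads were the coding windows of KCNJ12, KCNJ2, KCNV2 (9.53 CPM), KCNJ16 and KCNC4 (8.21 CPM), the last a voltage-gated channel, and the 27th of KCNK9. In the deposited depths the highest depth was 2.85 to 6.54 times the mean depth in these 10 windows, against a median of 10 times over KCN windows. This ratio falls as the number of reads rises, and these windows were picked for most reads. The comparison therefore cannot tell whether they hold stacked reads. KCNIP3 needs a caution on names: its 273 windows stretch over 363, and the 90 others between them carry 14 other gene names, so part of what is counted under KCNIP3 may lie outside the gene.

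Partners that are not named KCN were examined from a fixed list of 13 genes, made up of ATP-sensitive channel receptors, dipeptidyl peptidase-like and LRRC subunits, AMIGO1 and the pacemaker HCN channels. Their first windows had a median of 0.712 CPM and their other windows 1.11 CPM (n = 12), close to the KCN medians. The 24 calcium channel genes (CACN) had 0.583 and 1.12 CPM, and the 13 sodium channel genes (SCN) 0.233 and 0.531 CPM. SDs over the libraries were 0.0633 to 0.229 CPM.

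The breed comparison asked whether methylation of these genes differed between dairy and beef fibroblasts. Dairy and beef calves are also reared differently, and breed and rearing cannot be told apart here. With edgeR's likelihood-ratio test and the thresholds FDR < 0.1 and FC ≥ 2, no KCN window, no KCN gene over its other windows and no KCN first window was called. Of the 3610 windows, 686 from 79 genes had at least 1 CPM in at least 4 libraries and were tested. Of all windows tested 0.231% were called, and with the quasi-likelihood test and with DESeq2 0.122% each. At an unadjusted p under 0.05 there were 15 (2.19%, against 4.94% of all windows tested), with the quasi-likelihood test 13 (4.47% of all) and with DESeq2 7 (3.29% of all), and neither called a KCN window.

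The differences were small as well as uncalled. The largest log2 fold change among the 686 windows was 0.78 in size, the median size was 0.12 against 0.13 over all windows tested, and the median SE was 0.20. In 680 windows the 95% interval of the fold change lay within 2-fold either way. The intervals leave room for changes smaller than that, and do not show that the breeds are alike. The breeds did not overlap in 15 windows (2.19%, against 2.63% of all windows tested), 9 higher in Holstein (1.38% of all) and 6 higher in Angus (1.25% of all). Scaled by total counts in place of TMM, 11 windows did not overlap (1.60%, against 1.31% of all), so the KCN share lay below that of all windows under 1 scaling and above it under the other.

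KCNH8, a neuronal relative of the ether-a-go-go channels, had the 1 window that passed FDR < 0.1 when no fold change was asked for. Its 61st window of 93 (chr1:138579301-138582300, no coding exon) had 1.11, 1.00, 1.32 and 1.11 TMM-scaled CPM across Holstein animals 1 to 4 and 1.83, 1.46, 2.18 and 2.52 across Angus animals 1 to 4. Every Angus library lay above every Holstein library. The FC was 1.72, the log2 fold change -0.78 ± 0.20 (SE, Holstein over Angus; edgeR likelihood-ratio test, FDR = 0.0479). The quasi-likelihood test gave FDR = 0.190 and DESeq2 0.148; over all alternatives the FDR ran from 0.00687 to 1.00, with 1.00 under total counts, 0.300 without Holstein 4, 0.271 without Angus 4, 0.228 without Holstein 2 and 0.139 without Angus 3. Over all windows, 0.368% passed without a fold minimum.

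The first window of KCNG3, a silent subunit, had 0.805, 0.927, 1.11 and 0.579 TMM-scaled CPM across Holstein animals 1 to 4 and 1.32, 1.24, 1.59 and 1.24 across Angus animals 1 to 4. On the TMM scale the breeds did not overlap and differed by a log2 fold change of -0.67 ± 0.24, but the difference did not pass the test (edgeR, FDR = 0.446). By total counts they overlapped, with 1.21 CPM in Holstein 3 and 1.07 CPM in Angus 3. Over the alternatives the log2 fold change ran from -0.85 to -0.46, the latter without Holstein 4. Window 194 of KCNIP3 had 1.55, 1.35, 1.70 and 1.55 across Holstein animals 1 to 4 and 1.06, 0.952, 0.893 and 1.01 across Angus animals 1 to 4. It was the largest difference in favour of Holstein without overlap, with a log2 fold change of 0.65 ± 0.20 (edgeR, FDR = 0.209).

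The other windows named by size of change without overlap were, higher in Holstein, windows 9 of KCNN3, a small-conductance channel (log2 fold change 0.44), 2 of KCND3 (0.42), 146 of KCNIP3 (0.41) and 214 of KCNMA1 (0.38). Higher in Angus were windows 45 of KCNMA1 (-0.34), 119 of KCNQ1 (-0.33) and 9 of KCNK5, an acid-sensitive leak channel (-0.32). KCNMA1, the large-conductance channel opened by voltage and calcium, thus had 1 such window in each direction among its 26 tested. None of these passed the test (edgeR, FDR from 0.955 to 1.00). The lack of overlap was read on the TMM scale. By total counts, only window 214 of KCNMA1 among the windows of this paragraph stayed without overlap.

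**Figure D5:**
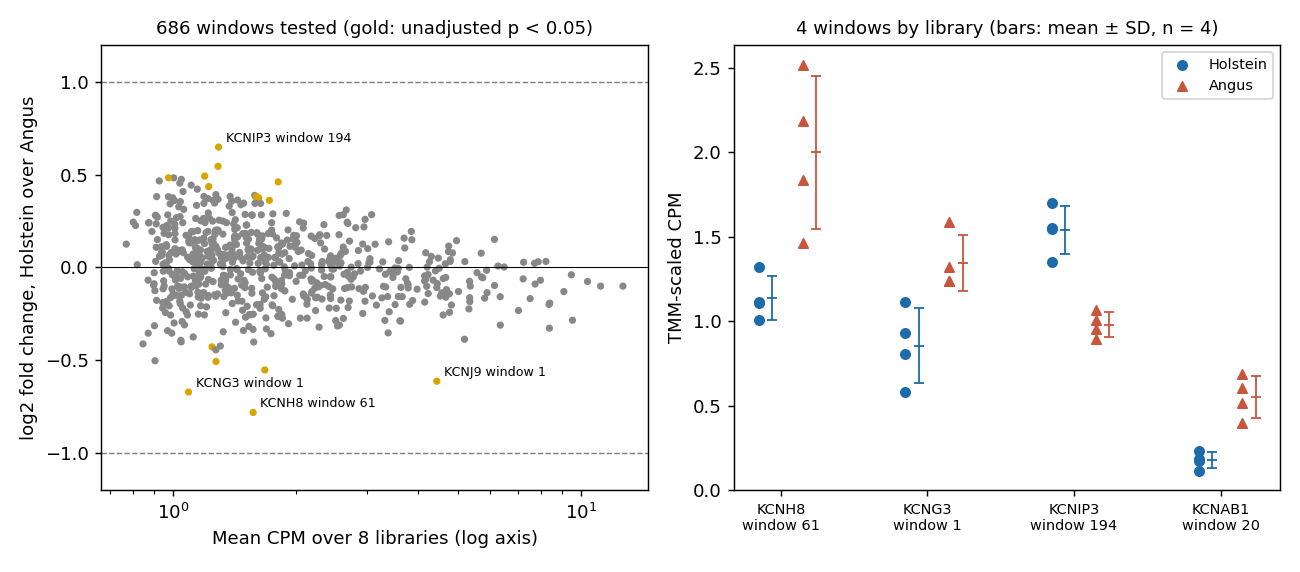
Left, log2 fold change (Holstein over Angus) against mean CPM (log axis) for the 686 KCN windows tested; dashed lines mark FC of 2, gold points p under 0.05. Right, TMM-scaled CPM by library (points) with mean ± SD (n = 4 per breed) for windows of KCNH8, KCNG3, KCNIP3 and KCNAB1; no point at left reaches a dashed line, and the breeds do not overlap in the 4 windows at right.

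By family, tested windows split about evenly between the breeds, except in silent subunits and in calcium- or sodium-activated channels. Differences between families were not tested. Log2 fold changes lay above 0 in 49.6% of 282 voltage-gated windows, 50.3% of 151 accessory, 53.1% of 49 inward rectifier, 55.3% of 103 tandem-pore, 60.8% of 74 calcium- or sodium-activated and 37.0% of 27 silent subunit windows, against 49.6% over all windows tested. The family medians ran from -0.07 to 0.06. Single genes weigh heavily in these shares. KCNIP3, part of whose windows may lie outside the gene, gave 98 of the 151 accessory windows. KCNQ1 gave 96 of the 282 voltage-gated ones. Of the 15 windows with unadjusted p under 0.05, 9 were higher in Holstein and 6 in Angus. No coding exon lay in 12 of the 15, as in 3165 of all 3610 KCN windows, and the share among the 686 tested was not computed. Both KCNN3 windows among the 15 were higher in Holstein, with log2 fold changes of 0.44 and 0.46 (FDR = 0.955 and 0.780, edgeR).

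Summed over their other windows, 79 of the 85 KCN genes were tested and 0 called, against 0.0423% of all genes; the quasi-likelihood test and DESeq2 also called 0, against 0% and 0.0302%; 0 had an unadjusted p under 0.05 (1.70% of all genes; 0 also with the quasi-likelihood test, against 1.46%, and with DESeq2, against 1.21%), and in 0 did the breeds part (1.26% of all genes). The largest log2 fold change was that of KCNE4, an inhibitory beta subunit, with -0.45 ± 0.31, and it rests on 1 window. In 78 of the 79 genes the interval lay within 2-fold, and 31 (39.2%, against 49.0% of all genes tested) had a log2 fold change above 0. Of the 89 first windows, 33 were tested and 0 called (0.384% of all first windows), 0 also with the quasi-likelihood test (0.297% of all) and DESeq2 (0.262% of all), with 2 at an unadjusted p under 0.05 (6.0% of all; 2 also with the quasi-likelihood test, against 5.58%, and with DESeq2, against 3.26%) and 1 without overlap of the breeds (3.37% of all). Of the 33, 15 (45.5%, against 50.9% of all) had a log2 fold change above 0.

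These 2 were KCNG3, above, and KCNJ9. The first window of KCNJ9 had 4.35, 3.27, 4.48 and 2.81 TMM-scaled CPM across Holstein animals 1 to 4 and 4.01, 4.51, 10.1 and 3.61 across Angus animals 1 to 4. Angus 3 stood far above the rest, which overlapped. The log2 fold change was -0.58 ± 0.25 (edgeR, FDR = 0.628), and without Angus 3 it was -0.15 (FDR = 1.00).

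Channel genes from the study's own expression lists for these cultures, and a few well-known members, were also looked up by name. The former were chosen by the study on the same cultures and give no independent evidence. KCNN4, the intermediate-conductance calcium-activated channel that is known from fibroblasts and lymphocytes, had 2.69 CPM ± 0.477 in its first and 1.08 CPM ± 0.189 in its other windows, and a breed log2 fold change of 0.11 ± 0.16 over the latter. KCNK6, a leak channel, had 0.134 CPM ± 0.0853 and 1.80 CPM ± 0.343, with 0.02 ± 0.18. KCNC4 had 1.17 CPM ± 0.398 and 2.09 CPM ± 0.287, with 0.07 ± 0.16. KCNG1 had 3.70 CPM ± 0.515 and 7.51 CPM ± 1.29, with -0.18 ± 0.22, and KCNJ2 differed by -0.09 ± 0.19. All of these had an FDR of 1.00 (edgeR).

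Among well-known members, KCNA1, the axonal channel, lies in 1 window with 3.61 CPM ± 0.549. KCNH2, the cardiac hERG channel, had 1.05 CPM ± 0.481 in its first and 2.09 CPM ± 0.422 in its other windows, and KCNMA1 0.274 CPM ± 0.109 and 0.542 CPM ± 0.136 over 255 windows. Breed log2 fold changes over the other windows were -0.06 ± 0.15 in KCNH2, -0.24 ± 0.22 in KCNJ11, 0.06 ± 0.13 in KCNMA1, -0.08 ± 0.16 in KCNQ1 and -0.02 ± 0.16 in KCNK9 (edgeR, FDR of 1.00 in each).

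Without the CPM filter, 3604 KCN windows entered the test and 1 was called, against 0.102% of all windows in that fit; 143 had an unadjusted p under 0.05, against 4.55% of all. It was window 20 of KCNAB1, which encodes a cytoplasmic beta subunit of KCNA channels (chr1:112256401-112259400). It held 3, 6, 5 and 5 reads across Holstein animals 1 to 4 and 14, 19, 8 and 15 reads across Angus animals 1 to 4. Every Angus library lay above every Holstein library, but counts this low carry wide counting error. The log2 fold change was -1.71 ± 0.39 (edgeR, FDR = 0.0192).

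Among the partners, 207 windows were tested and 0 called, against 0.231% of all windows tested, with 10 at an unadjusted p under 0.05 (4.94% of all). Window 238 of DPP6, which encodes an auxiliary subunit of KCND channels, came nearest. It had 1.86, 2.47, 2.29 and 2.94 TMM-scaled CPM across Holstein animals 1 to 4 and 0.991, 1.49, 1.69 and 0.732 across Angus animals 1 to 4, without overlap, at a FC of 1.99 just under the threshold (edgeR, FDR = 0.00147). It was named after its values were seen.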

How the data were processed

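The labels gave the breed and the number of each animal, and all 8 MIRA-Seq libraries could be assigned, 4 per breed, 1 per animal. The authors aligned quality-filtered reads to UMD v3.1 (bosTau6) with NextGENe 2.3.4 and deposited raw read counts per 3Kb window, not normalized, together with 2 read depths per window (highest and mean coverage, an unscaled signal); CASAVA 1.7 is named in the submitters' processing notes. The handling of duplicate and multiply matching reads is not given in the sources used here, and windows in repeats or near-copies depend on it. A window carries 1 gene name, so overlapping genes cannot be told apart. RNA-Seq libraries were not analysed here, and no sequence is printed, since no genome of this build was used.

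CPM was computed over all windows of a library; library totals of 18691111 to 35525554 reads set the precision. For KCN genes the first window by strand was kept apart from the others. The breeds were compared with edgeR 4.0.16 in R 4.3.3 after the study's methods, which name a likelihood-ratio test with limma where edgeR's own was used here, and TMM scaling was a choice made here: a filter that kept windows or genes reaching CPM 1 in 4 or more of the 8 libraries, a generalized linear model likelihood-ratio test, Benjamini-Hochberg adjustment over all features, FDR < 0.1 and FC ≥ 2. SEs are the size of the log2 fold change over the root of the likelihood-ratio statistic. The fits were also run on simulated counts, with the same dispersion for every feature and planted changes of at least 2-fold. The outcome is not given here, and such a run does not bear on smaller changes. Levels were computed in Python 3.11.15 with pandas 2.3.3.

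Alternatives tried were DESeq2 1.42.0, edgeR's quasi-likelihood test, DESeq2 size factors, total counts, no CPM filter, CPM of at least 1 in all 8 libraries, chromosomes 1 to 29 only, FDR < 0.05, no fold minimum, a replicate block, leaving out each library, and, chosen after seeing the data, leaving out Angus 3 with Holstein 1, and KCNIP3. Windows were named where a call was made, where breeds did not overlap (5 per direction with the largest change), for most reads (10), and genes for the 8 highest first and other windows, the 3 lowest, family extremes, or by name. Some genes that this rule names are not reported here. Members, gene lists and tests were chosen with earlier results of these data known.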

Additional observations from a re-analysis of the deposited data

Results flagged for a closer look

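Each of 116 groups of 4 libraries, 1 breed each, over the named windows and genes was searched for a library far from its 3 fellows relative to the range of the group (Dixon's criterion at 95%), and 7 met it; chance meets it in about 1 of 20 groups. Holstein 1 was low in 3 of them, with 9.20 CPM in window 34 of KCNQ1 (13.9 to 14.4 CPM in the others), 0.515 CPM in the other windows of KCND3 (0.868 to 0.889) and 2.08 CPM in the other windows of KCNH4 (2.94 to 3.01). Angus 3 was low in the other window of KCNJ9, with 0.604 CPM (0.904 to 0.963). The search used CPM by total counts and was not repeated under TMM, so all 7 flags rest on that scaling. TMM factors raise the low values of Holstein 1 and Angus 3 toward their fellows. These factors were 0.817 and 0.677 for windows and 0.748 and 0.661 for genes over their other windows. Holstein 1 and Angus 3 also had the lowest KCN share of reads; whether this plays a part in the values was not tested. By total counts, Angus 1 was low in window 13 of KCNJ12, with 9.53 CPM (11.3 to 11.6). On the TMM scale (factors 0.952, 1.10, 0.677 and 1.17 in Angus 1 to 4), Angus 3 was the library apart, and it was high. The high values were 10.4 CPM in the other window of KCNG1 in Angus 4 (6.43 to 7.02) and 4.92 CPM in the first window of KCNJ9 in Holstein 3 (3.41 to 3.59).

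Signal was also present in KCN genes outside chromosomes 1 to 29, which entered no comparison. KCND1 and KCNE1L on chromosome X had 2.01 CPM (1.59 to 2.51 over 8 libraries) and 0.680 CPM (0.379 to 0.866) per window, above the 3-read floor of 0.0844 to 0.161 CPM.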

How the results depend on the processing

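The count of KCN windows called was 0 except for 1 without a fold change minimum (KCNH8) and 1 without a CPM filter (KCNAB1), and the counts for genes and first windows were 0 under every alternative run; leaving out each library in turn left all 3 at 0 to 0. The median over KCN genes of the other windows was 1.27 CPM with reads on chromosomes 1 to 29 as library size and 0.759 CPM with the median over a gene's windows in place of their mean; the median first window was 0.990 CPM when the first 2 windows were joined, above the 0.957 CPM of the windows then left, with 49 genes below in place of 59; 22 genes with at least 5 windows had a first window of 1 CPM or more, by construction from fewer genes. Leaving out each library gave 1.02 to 1.10 CPM, 0.651 to 0.735 CPM, 33 to 34 genes and, for first windows below the others, 58 to 60 genes; without Angus 3 and Holstein 1 together the values were 1.15 CPM, 0.765 CPM, 35 and 59. First windows lay below the median of the others in 48 genes, against 59 below their mean. No log2 fold change of a named window reversed. Under total counts the median log2 fold change was 0.14 over all windows and 0.16 over KCN windows, against 0.00 and 0.01 under TMM; the directions given rest on TMM. The labels give both breeds animal numbers 1 to 4 and do not say whether these pair the animals. Same-numbered libraries did not deviate together (mean correlation -0.017, range -0.211 to 0.109). For different numbers the mean was 0.0089 and the range -0.204 to 0.265. With only 4 same-numbered pairs, this cannot settle whether animals were handled in pairs. With the number as a replicate block the calls among windows, genes and first windows were 0, 0 and 0. Low counts kept most members out of the breed tests, in which 686 of 3610 windows and 33 of 89 first windows took part.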
